A study of Mus musculus with 12 samples.

Results

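The clustered protocadherins are 58 genes in 3 neighbouring groups, Pcdha (alpha, 14 genes), Pcdhb (beta, 22) and Pcdhg (gamma, 22), that run along mouse chromosome 18 from 36930285 to 37841873 (GRCm38), a stretch of 911.589 kb. They were taken by symbol from the RefSeq gene table of that build, and they are 58 of the 21885 genes compared here. The table gives no strand for them. The end with the lower coordinate was taken as the start throughout, which for alpha and gamma genes is the end at which members differ and for beta genes is an assumption. The interval was followed for 300 kb on each side. It held 145 of the 97889 peak regions found across the genome when the peaks of all libraries were merged, and 103 of these lay between the first and the last member. The count of 22 gamma members includes Pcdhgb8, which the table lists as a transcribed pseudogene.

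Clustered protocadherins are cadherin-like adhesion proteins that bind copies of themselves on neighbouring neurons, and the combination a neuron displays helps it tell its own branches from those of other cells. Each alpha and gamma variable exon has its own promoter and is spliced to constant exons shared by its group, while each beta gene is a gene of its own with no shared exons. Most variable promoters are chosen at random, cell by cell, in neurons, and the C-type members (Pcdhac1, Pcdhac2, Pcdhgc3, Pcdhgc4 and Pcdhgc5) are known to be used more regularly. CTCF and cohesin are known to loop the chosen promoters to enhancers beside the constant exons.

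ATAC-seq, in which the Tn5 transposase inserts adapters into accessible DNA, was run on mouse embryonic stem cells (mESC) of a BL6xCAST cross grown on gelatin in a medium with LIF and 2i. Cells of the synHPRT1R genotype carried the reversed synthetic sequence, and cells of the synHPRT1 genotype the synthetic HPRT1 sequence, both integrated on the X chromosome. Each genotype was represented by 2 clones with 3 replicates per clone, so 6 libraries stood against 6. The study asked whether the synthetic sequences are accessible in comparison with the rest of the genome, to which the protocadherin cluster belongs. Each library came as its own list of MACS2 peaks, with the peak's fold over background and its summit. Peaks were not split by parental allele, and in a bulk measurement fewer open cells and weaker opening per cell cannot be told apart. The labels do not say whether replicates were separate cultures, so p-values measure the spread between libraries, which may be technical.

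The lists held 41735 to 58098 peaks in synHPRT1R libraries and 38400 to 63702 in synHPRT1 libraries. The lists do not give read depth, so list length stood in for it. Any 2 libraries shared 52.7 to 64.6% of their regions, and no pair was identical. Of 8 stem cell markers, 6 had a peak at the start in all 12 libraries. Pou5f1 had one in 6, and Esrrb in none at the outermost gene end used here. Of 6 fibroblast genes Twist1 had one in all 12, Col1a1 in 11 and the rest in 1 to 8. Of 8 neuronal genes, 7 were marked in 10 or more libraries. Of all other protein-coding genes, 50.2% had a peak at the start in all 12 libraries and 56.9% in at least 10. These short lists were not tested against those shares.

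Peaks were assigned to single variable exons by a window from 1 kb before to 3 kb after the annotated start of each gene, cut midway to the next member. All 58 windows held a peak in at least 1 library, 28 (48.3%) in at least 10 of 12 and 13 in all 12. Of the 21827 other protein-coding genes, 56.9% reached at least 10 libraries, 50.2% were marked at the start in all 12, and 30.3% were marked in none. The absence of members with no peak at all rests on the window and the full lists. Within 500 bp of the start, 16 members (27.6%) were never listed, against 37.1% of other genes. At a -log10 q of at least 5, 7 members (12.1%) were never listed, against 35.0% of other genes. Presence differed between the groups: 19 of 22 gamma members reached 10 libraries, against 5 of 14 alpha and 4 of 22 beta members. The median member was listed in 11 libraries in the gamma group, 9 in alpha and 6 in beta.

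**Figure D1:**
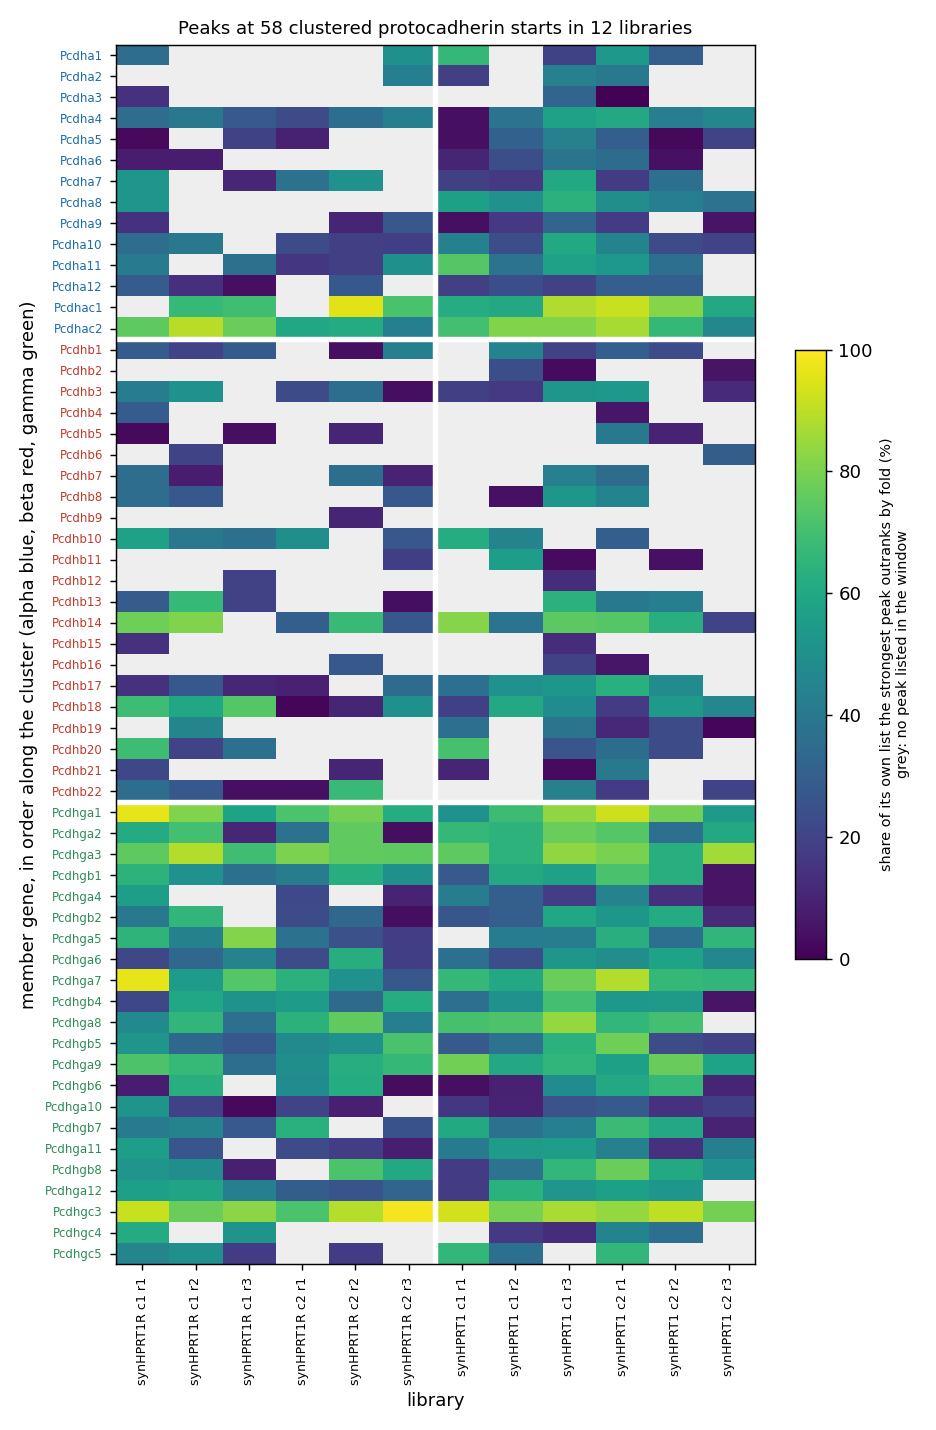
Each row is a member gene in chromosome order and each column a library (c, clone; r, replicate), with the 6 synHPRT1R libraries left of the 6 synHPRT1 libraries. Colour gives the percentage of the library's own list that the strongest peak in the window outranks by fold, and grey marks a window with no listed peak. Gamma rows are nearly filled, beta rows are filled at a mean of 48.9% per library, and Pcdhgc3, Pcdhac1 and Pcdhac2 are the brightest of the C-type rows.

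Gamma windows were the most often open. A mean of 91.3% ± 6.84 of gamma members had a peak per library (SD, n = 12 libraries), against 48.9% ± 16.5 of beta members, a difference of 42.4 percentage points that was positive in 12 of 12 libraries (exact sign-flip permutation test, two-sided, p = 0.000488, adjusted p = 0.00146 over 6 tests). Alpha members reached 69.6% ± 21.99, which was 20.8 points above beta in the mean and above it in 11 of 12 libraries (same exact test, p = 0.00293, adjusted p = 0.00439). Alpha members were 21.6 points below gamma members and above them in 2 of 12 libraries (same exact test, p = 0.00391, adjusted p = 0.00469). These order the groups as gamma, alpha, beta. Libraries of 1 clone share their origin, and over the 4 clones alone no such exact test could go below p = 0.125.

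The C-type members split into 3 that were strongly open and 2 that were not. Pcdhgc3 (chr18, start 37806410) had the highest median fold of all members, 7.94, and the highest single fold, 11.4. It was not the highest member in every library. Its folds were 8.99, 7.001, 7.38, 6.31, 8.38 and 11.4 in synHPRT1R libraries, against 9.51, 7.13, 8.23, 7.505, 8.79 and 7.64 in synHPRT1 libraries. The genotypes overlapped, and in the median library this peak outranked 85.6% of the list. Pcdhac2 (start 37143678) was also listed in 12 libraries, with folds of 6.79, 8.64, 6.97, 5.54, 5.85 and 4.98 in synHPRT1R libraries, against 6.51, 7.31, 7.37, 7.91, 6.21 and 5.48 in synHPRT1 libraries. Here too the ranges overlapped.

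Pcdhac1 (start 37090136) was listed in 10 libraries. In synHPRT1R libraries it was absent from clone 1 replicate 1 and clone 2 replicate 1 and had folds of 6.19, 6.38, 9.91 and 6.64 in the other 4, and in synHPRT1 libraries the folds were 5.95, 5.69, 8.42, 8.90, 7.57 and 6.21. The absence in clone 1 replicate 1 fell in the longest synHPRT1R list. Pcdhgc4 (start 37815079) was listed in 6 libraries, 2 of synHPRT1R and 4 of synHPRT1, and its strongest summits lay mostly before the start, with a median of -608 bp. Pcdhgc5 (start 37819546) had no summit inside its window and no peak within 500 bp of its start in any library. Its 7 listings came from the edge of a region 2911 bp downstream (chr18:37822457-37823017) that was present in all 12 libraries with a median fold of 4.53.

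Among the other alpha variable exons, Pcdha4 was listed in 12 libraries, Pcdha10 in 11 and Pcdha11 in 10, and the remaining 9 in 3 to 9. Pcdha4 (start 36952689) had folds of 3.96 to 4.98 in synHPRT1R libraries, with a median of 4.49, and of 3.31 to 5.48 in synHPRT1 libraries, with a median of 5.08. Its genotype ranges overlapped. The median folds of Pcdha10 and Pcdha11 over all libraries were 4.35 and 4.65. These were lower than the folds of the C-type pair in the same group, 6.51 at Pcdhac1 and 6.65 at Pcdhac2. At the other end, Pcdha3 was listed in 3 libraries and Pcdha2 in 4.

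Beta members were the least often listed. Pcdhb18 was present in 12 libraries, Pcdhb14 in 11, Pcdhb3 and Pcdhb17 in 10, while 7 of 22 were present in 1 to 3. Pcdhb9 was listed in 1 library, synHPRT1R clone 2 replicate 2. Pcdhb18 (start 37489465) had folds of 6.25, 5.67, 6.71, 2.90, 3.64 and 5.32 in synHPRT1R libraries, against 3.97, 5.69, 4.81, 3.39, 5.40 and 5.48 in synHPRT1 libraries. Pcdhb14 (start 37447657) had the highest median fold of the beta genes, 6.28, and was missing only from synHPRT1R clone 1 replicate 3. Its folds where listed were 7.06, 7.48, 4.22, 6.28 and 4.32 in synHPRT1R libraries, against 7.60, 4.60, 6.74, 6.36, 5.94 and 4.38 in synHPRT1 libraries. The folds of both genes varied more than 1.5 times between libraries of 1 genotype, with depth not accounted for. Only 1 beta gene reached 10 libraries when every list was trimmed to the length of the shortest, and 0 did when a -log10 q of at least 5 was required, against 9 of 58 members under that stricter threshold.

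Gamma variable exons were listed almost throughout. Pcdhga1, Pcdhga2, Pcdhga3, Pcdhgb1, Pcdhga6, Pcdhga7, Pcdhgb4, Pcdhgb5 and Pcdhga9 were present in 12 libraries besides Pcdhgc3. Pcdhgb2, Pcdhga5, Pcdhga8, Pcdhgb6, Pcdhga10, Pcdhgb7, Pcdhga11, Pcdhgb8 and Pcdhga12 were present in 11, and Pcdhga4 in 9. Pcdhga1 and Pcdhga3 had the highest median folds after Pcdhgc3. Pcdhga1 (start 37661775) had folds of 10.3, 7.48, 5.70, 6.33, 7.27 and 5.98 in synHPRT1R libraries, against 5.29, 6.23, 7.70, 9.11, 7.30 and 5.84 in synHPRT1 libraries. Pcdhga3 (start 37674335) had folds of 6.79, 8.51, 6.38, 7.13, 6.94 and 6.98 in synHPRT1R libraries, against 6.94, 5.96, 7.70, 6.99, 5.94 and 8.40 in synHPRT1 libraries. Neither gene separated the genotypes. Pcdhga10 was at the low end, with a median fold of 3.65 although it was listed in 11 libraries.

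Set side by side, the strongest peak per gene and library had a median fold of 5.28 in gamma members (3.15 to 11.4), 4.49 in alpha (2.54 to 9.91) and 4.24 in beta (2.89 to 7.60). The median peak outranked 52.8% of its own list in gamma, 36.8% in alpha and 29.1% in beta. These medians pool genes and libraries. Within single lists the gamma median rank was above that of beta in 12 of 12 and above that of alpha in 11, and the alpha median was above that of beta in 9, equal in 1 and below it in 2. Folds of different libraries may rest on different depths, so each rank was taken within its own list before pooling. The part of depth in differences of fold between libraries was not tested.

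The position of the peak inside the window differed between the groups, a pattern seen in the data and described here with no test. Summits were counted as at the start when they lay within 500 bp of it, and as downstream when they lay at least 1.2 kb after it. Of 142 alpha summits, 100 (70.4%) were at the start and 23 (16.2%) downstream. Of 282 gamma summits, 216 (76.6%) were at the start and 60 (21.3%) downstream. Beta genes showed the opposite, with 27 of 139 summits (19.4%) at the start and 112 (80.6%) downstream. In single libraries the downstream share of beta summits was 72.7 to 100%. For 17492 other protein-coding genes with a known strand it was 10.5 to 12.8%, and 71.7 to 74.6% of their summits were at the start.

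**Figure D2:**
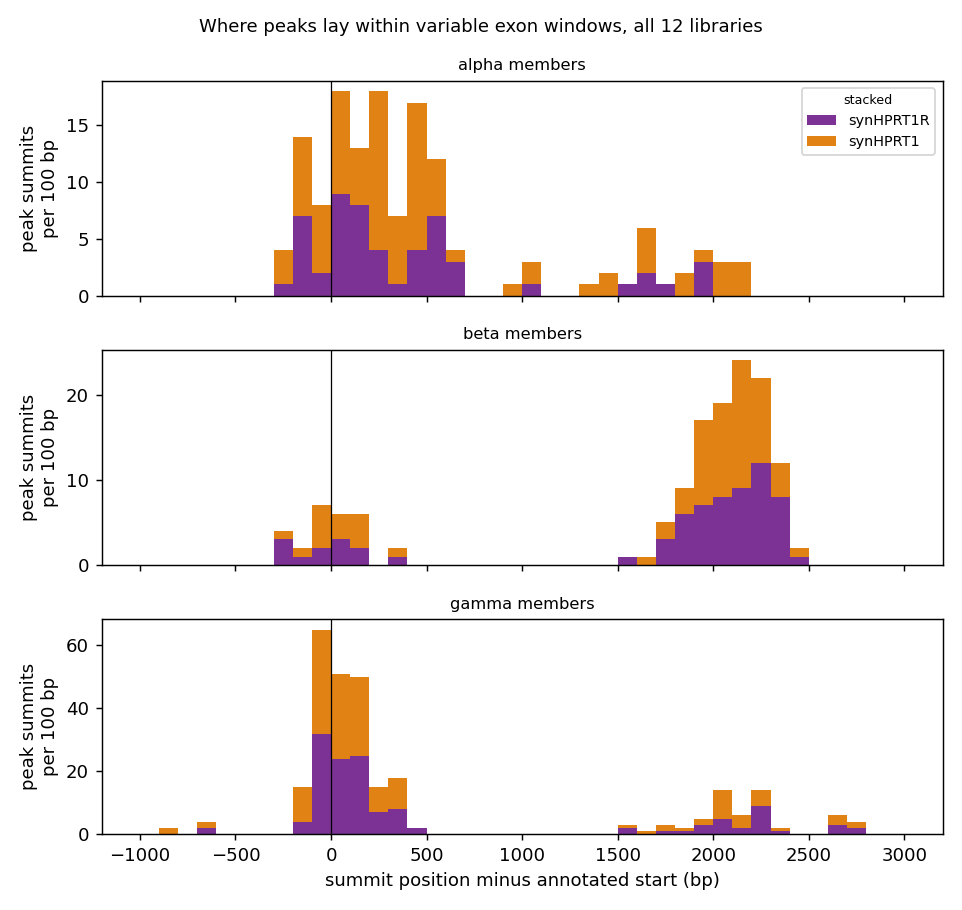
Histograms count peak summits per 100 bp by their distance from the annotated start of the member (bp, positive downstream), for alpha, beta and gamma members, with synHPRT1R and synHPRT1 libraries stacked. Alpha and gamma summits gather at the start with a smaller group downstream, and beta summits gather downstream at a median of 2132 bp.

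The downstream beta summits lay in a narrow band. Their median distance from the start was 2132 bp, with quartiles at 1993.25 and 2209.25 bp, although the genes themselves run from 2340 to 5271 bp in length. That placed the summits at 37.7 to 85.1% of the gene's length, depending on the gene. Summits past the window were not counted, which limits these percentages in the longer genes. The band was alike in both genotypes, with medians of 2136 bp in synHPRT1R and 2128 bp in synHPRT1. Downstream peaks outnumbered start peaks at 19 of 22 beta genes, and 14 had no peak within 500 bp of the start in any library. The exceptions were Pcdhb1, with a start peak in 9 libraries, Pcdhb11 in 4 and Pcdhb6 in 2, none with a downstream peak. Pcdhb3 had both kinds in 4 libraries and Pcdhb8 in 3. The median fold was 4.24 for downstream beta summits and 3.97 for those at the start. Whether these positions are exonic was not read from the table, which gives gene spans only.

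Within the windows used, downstream peaks in the gamma group were counted mainly at the Pcdhgb genes. Of 7 Pcdhgb genes, 6 had a downstream peak in some library and 5 in at least 6 libraries, whereas 4 of 12 Pcdhga genes had any and 1 of them in at least 6. Pcdhgb2 had a downstream peak in 11 libraries and a start peak in 6, and Pcdhgb5 had a downstream peak in 9 and a start peak in 10. Pcdhgb1 had a downstream peak in 8 libraries and a start peak in 11. The Pcdhga gene in question was Pcdhga12, the last of its kind before the C-types, with a downstream peak in 10 libraries and a start peak in 8. Windows were cut midway to the next start, so not all reached 3 kb. Those of Pcdhga4, Pcdhga8, Pcdhga9 and Pcdhga10 ended before the median downstream distance of Pcdhga12, 2687.5 bp. So did those of all Pcdhgb genes except Pcdhgb5. The windows of Pcdhgb7 and Pcdhgb8 ended even before 2175.5 bp, the median distance of all gamma downstream summits. Pcdhga12 had a full window, as had Pcdhga1, Pcdhga5 and Pcdhga6, which had no downstream peak, and Pcdhga11, which had one in 3 libraries. The part of window length in this contrast was not tested. The gamma downstream summits had a median distance of 2175.5 bp, close to that of the beta genes. In the alpha group downstream peaks were seen at 11 of the 12 genes outside the C-types, in at most 3 libraries each, and Pcdha3 had no other kind. No C-type member had a downstream summit inside its window, and the region after Pcdhgc5 described above has its summits just past the window.

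The cluster was dense in peaks compared with its surroundings. It held 6.69 ± 1.34 peaks per 100 kb (SD, n = 12 libraries), against 4.63 ± 0.841 in the flanks, and the difference of 2.07 was positive in 12 of 12 libraries (exact sign-flip permutation test, two-sided, p = 0.000488, the smallest it can give, adjusted p = 0.00146 over 6 tests). At a -log10 q of at least 5 the difference was 0.420 and no longer passed (exact test, p = 0.141). Of 2870 windows of the same length across the genome, 0.139 to 1.57% held as many summits as the cluster, depending on the library. The cluster had 45 to 84 summits, and the median window 12 to 19. Neither the flanks nor the windows were matched to the cluster by number of genes. Recurrence of the regions was near that of the genome at the upper end. Of 103 cluster regions, 20 (19.4%) were in all 12 libraries, against 23.8% of all regions, and 13 (12.6%) were in 1 library, against 27.1%.

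**Figure D3:**
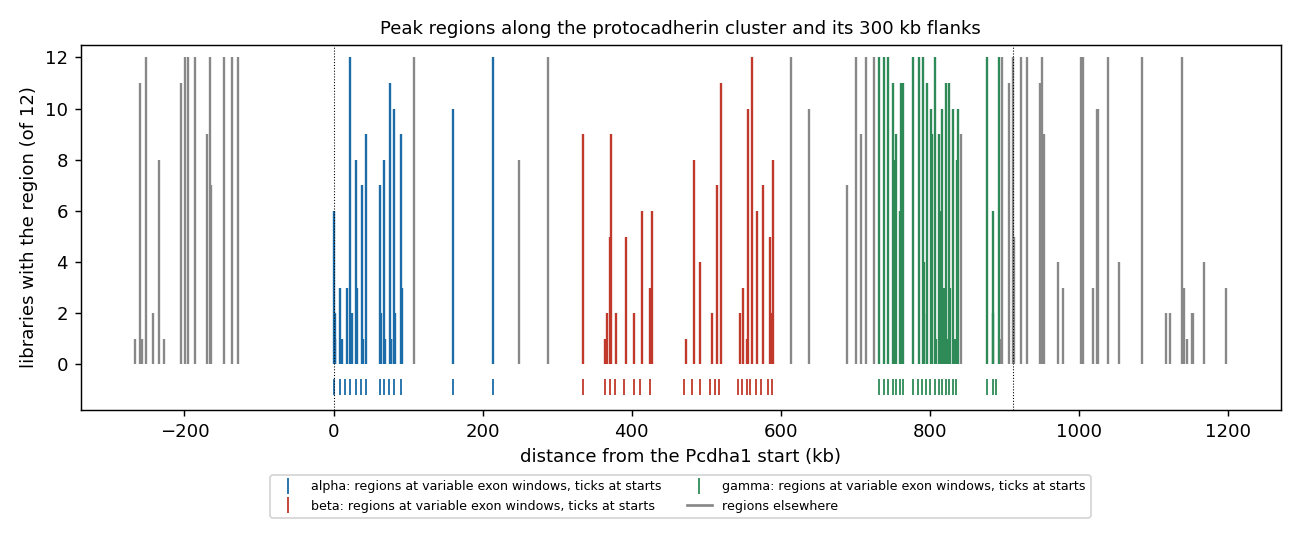
Each vertical line is a merged peak region, placed by its distance from the Pcdha1 start (kb), and its height is the number of libraries (of 12) that list it. Blue, red and green lines lie in alpha, beta and gamma variable exon windows, grey lines elsewhere, ticks below zero mark member starts, and dotted lines mark the ends of the cluster. Tall green lines crowd the gamma group, the beta group holds mostly short lines, and 8 grey lines inside the cluster reach 12.

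Outside the variable exon windows the cluster held 15 regions, and 10 of them were present in at least 10 libraries, a share of 66.7% against 32.5% of all regions. In the alpha group the region chr18:37037632-37038256 lay 17402 bp after the Pcdha12 start, inside the spans of the alpha genes, and had folds of 6.21 to 10.3 with a median of 7.69 in 12 libraries. A second, chr18:37217501-37218459, lay 29838 bp beyond the end shared by 13 of the 14 alpha genes, with a median fold of 7.12 in 12 libraries. An enhancer of the alpha genes is known to lie downstream of their constant exons, and whether this region is that enhancer was not tested.

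Between the beta and gamma groups lay chr18:37543478-37544324, which was 22059 bp past Pcdhb22 and had a median fold of 7.62 in 12 libraries, and chr18:37567981-37568756, with 4.66 in 10. Closer to the gamma group, chr18:37630251-37631575 lay 5803 bp from Slc25a2, a mitochondrial carrier gene, with a median fold of 5.88 in 12 libraries. The region chr18:37643765-37644715 lay at an end of Taf7, which encodes a subunit of the general transcription factor TFIID, with 9.66 in 12. Ahead of Pcdhga1 by 5624 bp, chr18:37655313-37656151 had a median fold of 6.53 in 12 libraries. All these regions except the one in 10 libraries were listed in every library of both genotypes.

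The remaining 3 lay in the last part of the gamma group. The region chr18:37826308-37826747 was 6762 bp after the Pcdhgc5 start, with a median fold of 4.16 in 12 libraries. A second, chr18:37835546-37836783, had 4.29 in 11 libraries. The region chr18:37840557-37842078 spanned the shared end of the gamma genes, with a median fold of 5.07 in 12 libraries. Enhancers known to act on the clustered genes lie beyond the gamma constant exons. The downstream flank held 25 regions, 8 of them (32%) in all 12 libraries. That share was 47.1% of 17 regions in the upstream flank and 23.8% of all regions. Whether any of these regions is such an enhancer was not tested.

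**Figure D4:**
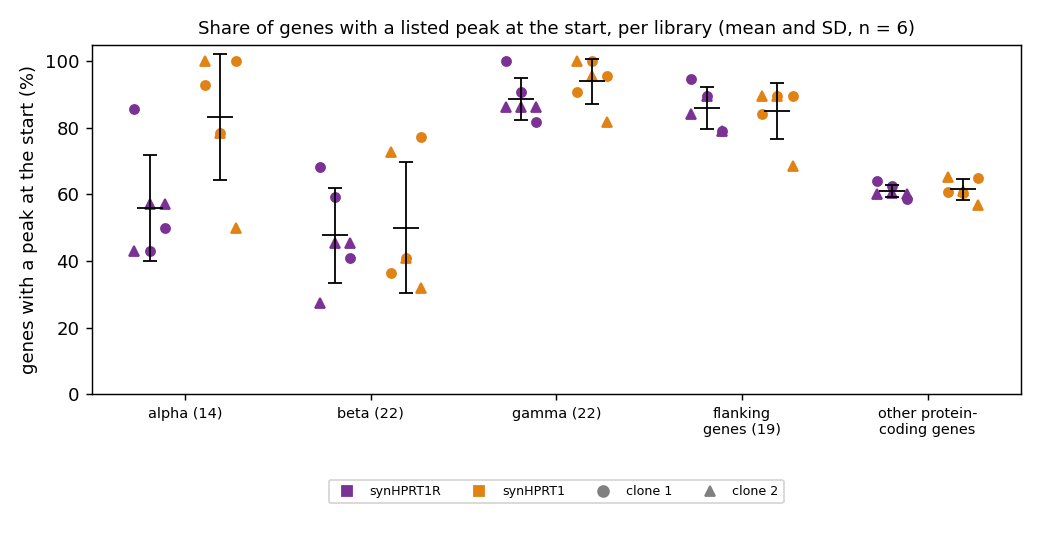
Points give, for each library, the percentage of alpha, beta, gamma, flanking and other protein-coding genes with a listed peak at the start (circles clone 1, triangles clone 2), with synHPRT1R left of synHPRT1 and bars for the mean and SD of 6 libraries. Flanking genes, and other genes with no strand, counted with either end. Gamma shares lie at 81.8 to 100%, alpha and beta shares spread from 27.3 to 100%, and other genes stay between 56.8 and 65.1%.

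Counted with a peak at either end, neighbouring genes were listed more regularly than the members. Of 19 flanking protein-coding genes, 12 had a peak at either end in all 12 libraries, beside 50.2% of all other protein-coding genes. The 12 were Apbb3, Slc35a4, Tmco6, Ndufa2, Ik, Wdr55, Dnd1, Hars, Hars2, Zmat2, Diaph1 and Fchsd1, while Arap3 had no peak. A mean of 70.0% ± 12.4 of members had a peak per library, against 85.5% ± 7.14 of flanking genes (SD, n = 12). The difference of -15.6 percentage points was negative in 10 of 12 libraries (exact sign-flip permutation test, two-sided, p = 0.00195, adjusted p = 0.00391). The gene table gave no strand on this chromosome, so a flanking gene counted when either of its ends had a peak. With each end counted singly the difference was 4.18 points (exact test, p = 0.121), so the direction rests on that choice.

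Against all other protein-coding genes, of which 61.3% ± 2.48 had a peak per library, the members stood 8.71 points higher, in 9 of 12 libraries (exact sign-flip permutation test, p = 0.0122, adjusted p = 0.0122). This direction did not hold under 3 other settings. It was -4.33 points with lists of equal length (exact test, p = 0.00928), -11.5 points at a -log10 q of at least 5 (p = 0.0151 by the exact test) and -3.40 points with windows of 500 bp on each side (p = 0.161 by the exact test). The members' share moved with list length more than that of other genes, from 53.4 to 89.7% against 56.8 to 65.1%.

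Non-clustered protocadherins are single genes outside the cluster. Of 12, 10 had a peak at the start in all 12 libraries and Pcdh11x in 11, while Pcdh12 had none, and 3 of them were counted with either end. The list was not tested against the members, and 50.2% of all other protein-coding genes were likewise listed throughout. Of 13 genes for factors known to bind, loop or silence clustered protocadherins, 9 had a peak in all 12 libraries, among them Ctcf, the cohesin genes Rad21, Smc1a and Smc3, Smchd1 and Dnmt3b. Setdb1 had one in 8 libraries, Nipbl in 1, and Dnmt1 and Dnmt3a in none at the outermost gene end used here. Inside the cluster, Taf7 had a peak in 12 libraries and Slc25a2 in 9.

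No member passed the test between the genotypes after adjustment over the genome. Fisher's exact test of presence was possible for 45 members (the other 13 were in all 12 libraries), within 4299 gene starts tested, of which 0 (0%) passed a Benjamini-Hochberg adjusted p of 0.05 and 8 (0.186%) an unadjusted one. The smallest p that 6 against 6 libraries can give is 0.00216, which is too large for a handful of fully separated genes to pass the adjustment. The only member under 0.05 unadjusted was Pcdha8, in 1 synHPRT1R and 6 synHPRT1 libraries (Fisher's exact test, p = 0.0152, adjusted p = 1). Its fold was 5.16 in synHPRT1R clone 1 replicate 1 with no peak in the other 5 synHPRT1R libraries, against 5.62, 5.14, 5.77, 4.66, 4.86 and 5.11 in synHPRT1 libraries. The count was 1 against 6 with lists of equal length and at the stricter threshold as well.

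The next lowest p-values belonged to Pcdhb19, in 1 synHPRT1R and 5 synHPRT1 libraries (Fisher's exact test, p = 0.0801, adjusted p = 1), and to Pcdha5, Pcdhga4 and Pcdhb2 (p = 0.182 each by the same exact test, adjusted p = 1). Pcdha5 and Pcdhga4 were each in 3 synHPRT1R and 6 synHPRT1 libraries, and Pcdhb2 in 0 synHPRT1R and 3 synHPRT1 libraries. With lists of equal length the counts, synHPRT1R first, were 1 against 2 for Pcdhb19 and 1 against 3 for Pcdha5. They were 2 against 4 for Pcdhga4 and 0 against 2 for Pcdhb2. At a -log10 q of at least 5, Pcdhb19 had 1 against 1 and Pcdha5 0 against 2. Pcdhga4 had 1 against 2 and Pcdhb2 0 against 0 at that threshold. Over 83 cluster regions tested, 1 had an unadjusted p under 0.05 and 0 an adjusted one, against 0.22% and 0% of 74604 regions in the genome. That region, chr18:36992294-36993169, is the Pcdha8 peak described above and not a separate observation. Of these 83, 21 were in more synHPRT1R and 44 in more synHPRT1 libraries, beside 24699 (33.1%) and 37516 (50.3%) of the 74604 regions genome-wide.

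Of the 45 members tested, 11 (24.4%) were in more synHPRT1R and 26 (57.8%) in more synHPRT1 libraries. The alpha group carried most of this one-sidedness. Of 12 alpha members not in every library, 11 were in more synHPRT1 than synHPRT1R libraries and 0 in fewer. Beta members split 7 in more synHPRT1R against 7 in more synHPRT1 libraries, and gamma members 4 against 8. Over all gene starts tested, 36.3% were in more synHPRT1R and 45% in more synHPRT1 libraries. Alpha members with a peak numbered 12, 6, 7, 6, 8 and 8 in synHPRT1R libraries, against 13, 11, 14, 14, 11 and 7 in synHPRT1 libraries. The ranges overlapped, with 4 synHPRT1R libraries at 7 or more and 3 synHPRT1 libraries at 11 or fewer. With lists of equal length the counts were 7, 4, 6, 4, 7 and 8 in synHPRT1R, against 6, 9, 9, 7, 8 and 7 in synHPRT1, and the members split 2 in more synHPRT1R against 7 in more synHPRT1, where 43.3% of all gene starts tested were in more synHPRT1R and 38.4% in more synHPRT1 libraries. The count was not tested because the pattern was picked after its values were seen. The 3 longest lists (58098, 63556 and 63702 peaks) had 12 to 14 alpha members, and the part of list length in this difference was not tested beyond the trimmed lists.

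**Figure D5:**
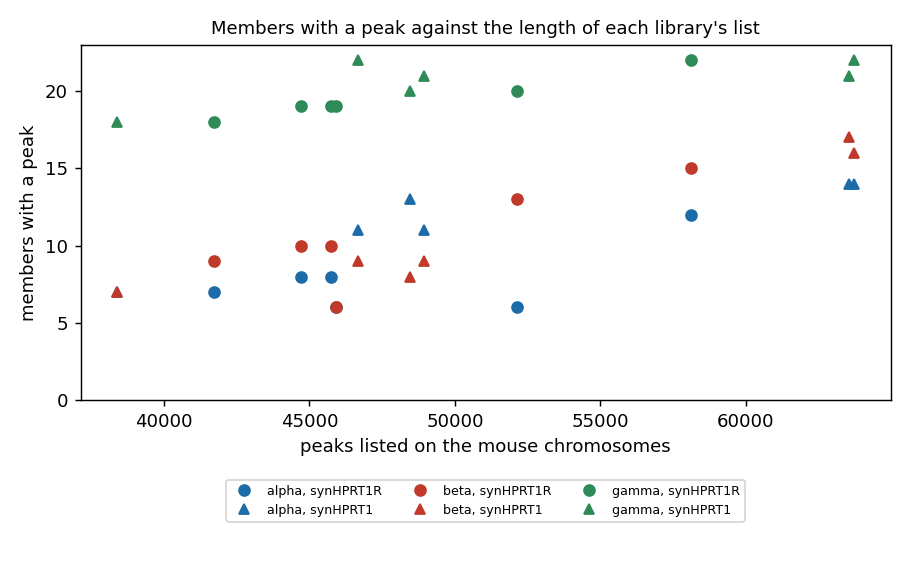
Members with a peak are plotted against the number of peaks listed per library, coloured by group, circles for synHPRT1R and triangles for synHPRT1. At the lists of 38400 and 45903 peaks the alpha and beta points coincide, at 7 and 6 members. Beta counts lie at 6 to 13 in the other 9 lists and at 15 to 17 in the 3 longest, and gamma counts stay between 18 and 22.

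Counts over the whole cluster did not separate the genotypes. Cluster peaks numbered 72, 58, 52, 47, 55 and 54 in synHPRT1R libraries, against 60, 62, 80, 84, 63 and 45 in synHPRT1 libraries. The means were 56.3 ± 8.50 in synHPRT1R and 65.7 ± 14.3 in synHPRT1 libraries (SD, n = 6 each), a difference of -9.33 (exact permutation test, two-sided, p = 0.206, adjusted p = 0.280 over 4 tests). Variable exons with a peak averaged 37.8 ± 6.15 in synHPRT1R and 43.3 ± 7.63 in synHPRT1 libraries (exact permutation test, p = 0.210, adjusted p = 0.280). Flank peaks averaged 26.7 ± 3.78 in synHPRT1R and 28.8 ± 6.24 in synHPRT1 libraries (exact permutation test, p = 0.522, adjusted p = 0.522). Per 10000 listed peaks, the cluster held 11.7 ± 0.868 in synHPRT1R and 12.7 ± 0.579 in synHPRT1 libraries, a difference of -0.949 (exact permutation test, p = 0.0455, adjusted p = 0.182). By clone the means were 11.99 and 11.4 for synHPRT1R clones 1 and 2, against 12.8 and 12.59 for synHPRT1 clones 1 and 2. None of the 4 tests passed after adjustment.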

How the data were processed

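ATAC-seq peaks of 12 mESC libraries were used as deposited by the authors: 1 narrowPeak list per library, with a fold ratio, -log10 p and -log10 q values, a score and a summit offset per peak. Per the submitters' processing notes, the tools were MACS2 2.1.0, deepTools 3.5.0, Bowtie2 2.2.9, bcl2fastq 2.20 and SAMtools 1.9, on GRCm38/mm10. The Tn5 offset and the handling of duplicates, multi-mapping reads and blacklisted regions were not given in the sources used here. The lowest deposited -log10 q was 1.30. Read depth is unknown, so no counting interval is given, and list length (38400 to 63702) limits detection.

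Gene positions came from the RefSeq GRCm38 table. Peaks on autosomes and sex chromosomes were merged into regions when they overlapped by at least 1 bp. Member windows ran from 1 kb before to 3 kb after the start, cut midway between neighbours. Members were counted at their lower coordinate, taken as the start. Other genes with no strand (those on chromosome 18 among them) counted with either end, and 3 read-through genes sharing member starts were left out. Groups came from the labels. Genotypes were compared by exact permutation over 924 splits, and shares within libraries by exact sign flips (4096). Presence per region or gene was compared by Fisher's exact test, adjusted over the genome by the Benjamini-Hochberg method (Python 3.11.15, numpy 2.4.6, pandas 2.3.3, scipy 1.17.1). Fisher's test was checked on simulated data without clone structure, and the permutation and sign-flip tests only on small fixed sets of values. Named were the C-type members, members and regions outside windows in at least 10 libraries, the 5 lowest Fisher p-values and flanking genes in 12 libraries, and others chosen after their values were seen. Members and gene lists were chosen with earlier results of these data known, and the summit zones after seeing the summits. Same-numbered libraries of the 2 genotypes did not deviate together (r from -0.00321 to 0.00294 over 43282 regions), so numbers were not taken as pairs. Alternatives were equal list length, -log10 q of at least 5, summit only, smaller windows, 50% coverage, a replicate block and leaving out each library. Chromosome 18 sequences are not used here.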

Additional observations from a re-analysis of the deposited data

Results flagged for a closer look

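In 20 groups of 6 libraries (10 measures in each genotype), a library standing apart from the other 5 was looked for by its gap to the nearest one, a rule that flags about 1 group in 20 by chance. It marked 2 values. Alpha members with a peak numbered 12 in synHPRT1R clone 1 replicate 1, against 6 to 8 in the other synHPRT1R libraries. That library had the longest synHPRT1R list, 58098 peaks, and 7 alpha members when lists were of equal length.

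In synHPRT1 clone 2 replicate 3, 68.4% of flanking genes had a peak at either end, against 84.2 to 89.5% in the other synHPRT1 libraries. That library had the shortest list of all, 38400 peaks. The part of list length in either value was not tested further.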

How the results depend on the processing

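Of the comparisons, 4 values changed direction, all in shares of members against other genes: 4.18 points against flanking genes with each end counted singly, and against all other genes -4.33 points at equal list length, -11.5 points at a -log10 q of at least 5 and -3.40 points with 500 bp windows. The density difference fell short of its threshold at that -log10 q, at 0.420 peaks per 100 kb. Members in at least 10 libraries numbered 9 at that -log10 q, of which 2 were alpha, 0 beta and 7 gamma, and beta members numbered 1 at equal list length and 0 with 500 bp windows. Other alternatives kept direction and call, except that the genotype differences at Pcdhb19 and Pcdhb2 were 0 at that -log10 q. Per 10000 listed peaks, the unadjusted exact permutation p was 0.232 at equal list length and 0.320 at that -log10 q. Without 1 library the genotype difference ranged from -13.5 to -5.67 for cluster peaks, from -3.93 to -0.533 for flank peaks, from -1.14 to -0.653 per 10000 listed peaks (exact permutation p from 0.0152 to 0.0952, adjusted p from 0.0606 to 0.372) and from -7.77 to -3.77 for variable exons. Within libraries the ranges were -17.0 to -14.2 and 7.26 to 10.1 points for members against flanking and all other genes, 1.98 to 2.19 peaks per 100 kb, and 17.5 to 24.1, 40.9 to 44.6 and -24.0 to -19.2 points for alpha minus beta, gamma minus beta and alpha minus gamma. Without the shortest list 26 members were in at least 10 of the remaining libraries. With the replicate block the differences were -9.33, -2.17, -0.949 and -5.50 for the same 4 genotype comparisons, the lowest exact sign-flip p was 0.188, and it changed no call. Adjusted Fisher calls stayed at 0 with equal list length, a -log10 q of at least 5, the replicate block and each library left out, for regions also with 50% coverage and for genes also with 500 bp windows, with 14 to 508 regions and 1 to 22 genes under 0.05 unadjusted.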
